A study of Homo sapiens with 10 samples.

Results

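The genes described here encode enzymes that metabolize foreign compounds and alcohols. They were taken from the gene table by name: cytochromes P450 (CYP), alcohol dehydrogenases (ADH), aldehyde dehydrogenases (ALDH), UDP-glucuronosyltransferases (UGT), sulfotransferases (SULT), cytosolic and kappa glutathione S-transferases (GST) and microsomal glutathione S-transferases (MGST), leaving out CYP26A1, CYP26B1, CYP51A1 and ALDH1A1. The rule found 52 of the 12125 genes in the table. Of these, 22 belong to phase I (8 CYP, 1 ADH and 13 ALDH genes) and 30 to phase II (5 UGT, 8 SULT, 14 GST and 3 MGST genes). The rule itself uses names and no measured value. The table it was applied to holds only genes with at least 2 libraries at 26 or more, so membership also depends on values. UGT2B7, for example, reached 26 only on days 13 and 21 (29 and 124).

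The RNA came from H1, a widely used human embryonic stem cell (hESC) line, during differentiation towards hepatocyte-like cells without serum. Day 0 was undifferentiated H1 on Matrigel in mTeSR1 medium. Days 1, 2 and 3 followed Activin A at 100 ng/ml in RPMI/B27 without insulin. Days 5 and 7 followed FGF4 at 30 ng/ml with BMP2 at 20 ng/ml, and days 9 and 11 followed HGF and KGF at 20 ng/ml each, all in RPMI/B27 with insulin. Day 21 followed Oncostatin M (OSM) at 20 ng/ml in a hepatocyte medium, so that OSM and this medium cannot be told apart. The label of the day 13 library names OSM, whereas 13 days is the sum of the first 3 steps (3, 4 and 6 days) in the protocol, before the 8 days of OSM. Each day is 1 library of 1 cell line with no replicate, so no difference between days has a replicate error and none was tested.

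Foreign compounds are handled in steps. Phase I enzymes oxidize them or unmask a reactive group, and ADH and ALDH enzymes oxidize alcohols and then aldehydes. Phase II enzymes attach a polar group to the product, such as glucuronic acid by UGT, sulfate by SULT and glutathione by GST, and pumps then export the conjugate. The liver is the main site of this work. Several ALDH and CYP enzymes also act on the body's own amino acids, sterols and retinoids, and many of these genes are used by cells of other tissues.

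The deposited values are whole numbers normalized for GC content and are not read counts, so the depth of a library is unknown. All 10 libraries shared nearly the same distribution, with medians of 81 or 82 and totals within 1.36% of each other. Values of 2000 or more fell on levels that the libraries share, which among the enzymes touches only MGST1 at day 0. The values are not per transcript length and are compared only within a gene, apart from sums over marker genes, in which the genes with the highest values weigh most. A gene was called higher or lower when log2(value + 1) differed by at least 2 (4-fold) and the larger value was at least 50, and the share of all genes called in the same way is given as background. Where a gene is listed at 0, no fold is given. Values over the course stand in order of day, which is days 0 to 3, then every other day from day 5 to day 13, then day 21. The hepatic markers (9 of 9 found, AFP and ALB among them) had sums of 66, 160, 54984 and 91003 on days 0, 3, 13 and 21, and 4 pluripotency markers had sums of 8663, 4619, 619 and 42. From day 13 to day 21 the hepatic markers ALB, APOB, SERPINA1 and TF rose, while HNF4A, APOA1 and FGB fell. AFP and TTR stood at 18734, the highest of the shared levels, on both days. APOB and SERPINA1 reached that level at day 21, so the hepatic sum at day 21 was largely set by it.

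Most of the rises of these enzymes came after day 3. Between days 3 and 13 some of the ALDH, SULT and GST genes and CYP4X1 rose, and between days 13 and 21 4 of the 5 UGT genes and GSTA1 rose. From day 0 to day 3, 3 of the 29 enzyme genes that could be called (larger value at least 50) were higher, against 3.94% of all genes that could be called, and 1 was lower, against 2.16%. From day 3 to day 13, 11 of 37 were higher (29.7%, background 7.8%) and 2 were lower (background 5.6%). With day 11 in place of day 13, 7 were higher and 1 was lower. In the last interval, day 13 to day 21, 7 of 38 were higher (18.4%, background 2.28%) and 0 were lower (background 1.62%). Counted from day 11 instead, 5 were higher and 1 was lower. Over the whole course, from day 0 to day 21, 16 of 42 were higher (38.1%, background 11.9%) and 5 were lower (11.9%, background 11.5%). The share of lower genes was thus near the background. With a minimum of 200 for the larger value, the genes called higher numbered 0, 4, 2 and 6 in these 4 intervals in turn. In all, 29 of the 52 genes were called in at least 1 of these intervals. Of the other 23, 6 had too low a value to be called in any of the 4 intervals. The share of all genes called in at least 1 interval was not computed. Nor was it for the counts with day 11 or with a minimum of 200, so these counts have no background. In bulk RNA, fewer cells that use a gene and less RNA per cell cannot be told apart.

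**Figure D1:**
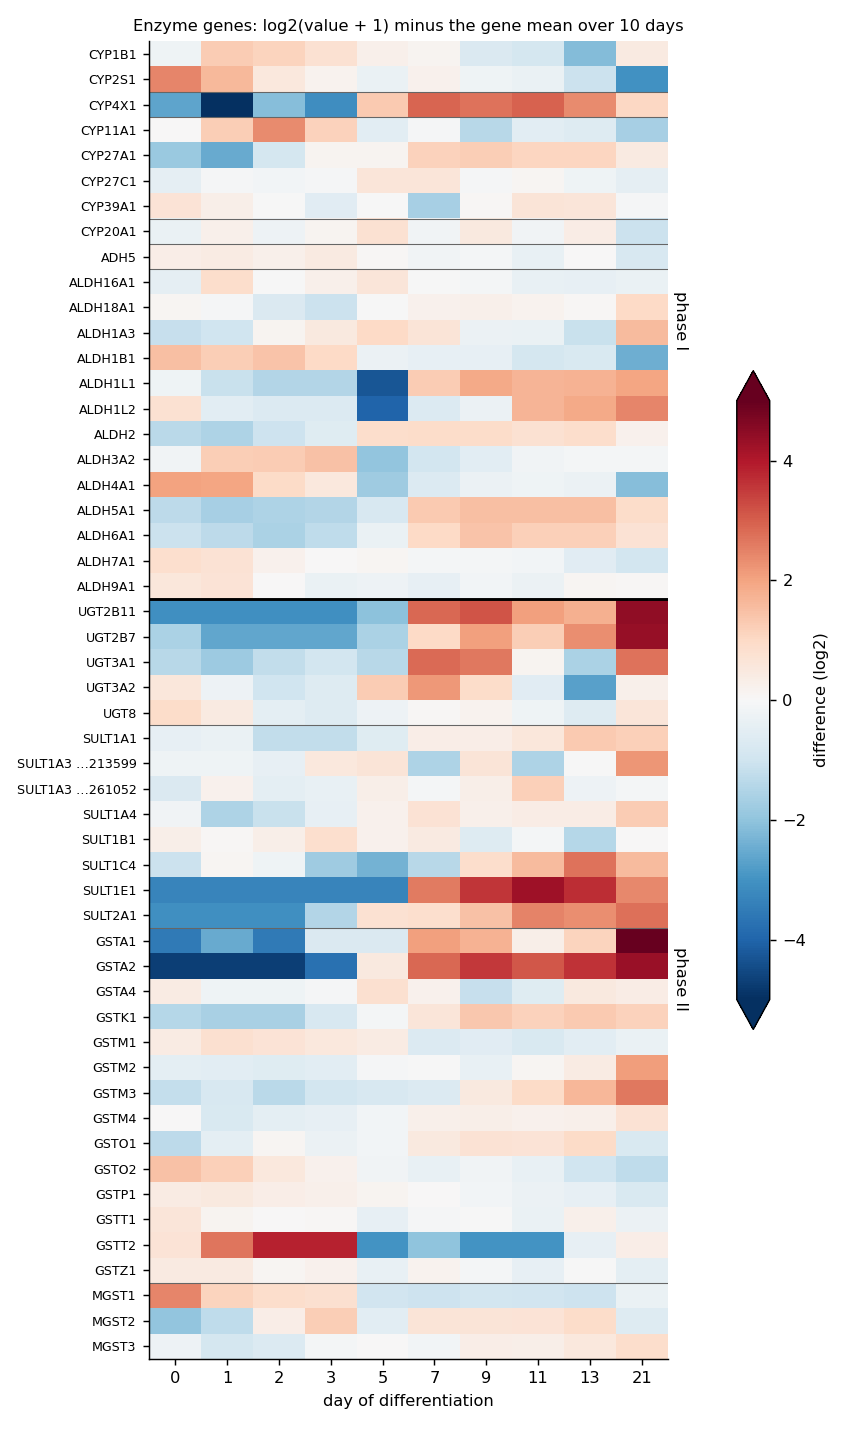
Each row is 1 of the 52 enzyme genes and each column 1 library by day of differentiation. Colour is log2(value + 1) minus the mean of that gene over the 10 days, thin lines separate the families and the thick line separates phase I (above) from phase II (below). Among the darkest red cells are GSTA1, GSTA2, UGT2B7 and UGT2B11 at day 21 and SULT1E1 at day 11, whereas CYP2S1 and MGST1 are highest at day 0.

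Among the cytochromes P450, CYP4X1 rose, CYP2S1 and CYP1B1 fell, and CYP27A1 rose early. Of families 1 to 3, which hold most of the P450s that act on drugs, the rule found CYP1B1 and CYP2S1 and no other gene. The table holds no gene with fewer than 2 libraries at 26 or more. A P450 expressed at day 21 only could therefore be missing from it, and absence from the table does not show absence of expression. CYP2S1, a P450 known from epithelia outside the liver, had values of 496, 280, 131, 102, 70, 104, 76, 70, 42 and 10. It was lower at day 3 than at day 0 (log2 difference -2.27) and lower still at day 21 (-5.50 against day 0). CYP1B1, which oxidizes aromatic hydrocarbons and oestradiol and is a known target of the aryl hydrocarbon receptor AHR, had values of 26, 74, 66, 52, 36, 33, 18, 16, 6 and 42. Its fall from day 3 to day 13 (-2.92) was followed by a value at day 21 that lay between those of days 3 and 5.

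CYP4X1, a P450 of family 4 known to oxidize the endocannabinoid anandamide, had values of 6, 0, 9, 4, 108, 328, 282, 334, 224 and 89. The values on days 5 to 21 all lay above those on days 0 to 3, with a difference of 5.49 from day 3 to day 13. Its value at day 21 was below those of days 5 to 13. CYP27A1, the mitochondrial sterol 27-hydroxylase of bile acid synthesis, had values of 21, 13, 42, 87, 88, 179, 188, 166, 167 and 109. It was higher at day 3 than at day 0 by 2.00, which is the threshold itself, and was highest at day 9. CYP11A1, the first enzyme of steroid hormone synthesis, had values of 15, 36, 80, 34, 10, 14, 5, 10, 9 and 4 and thus peaked at day 2, with no call in the 4 intervals. CYP20A1, CYP27C1 and CYP39A1 stayed under 50 in all 10 libraries.

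**Figure D2:**
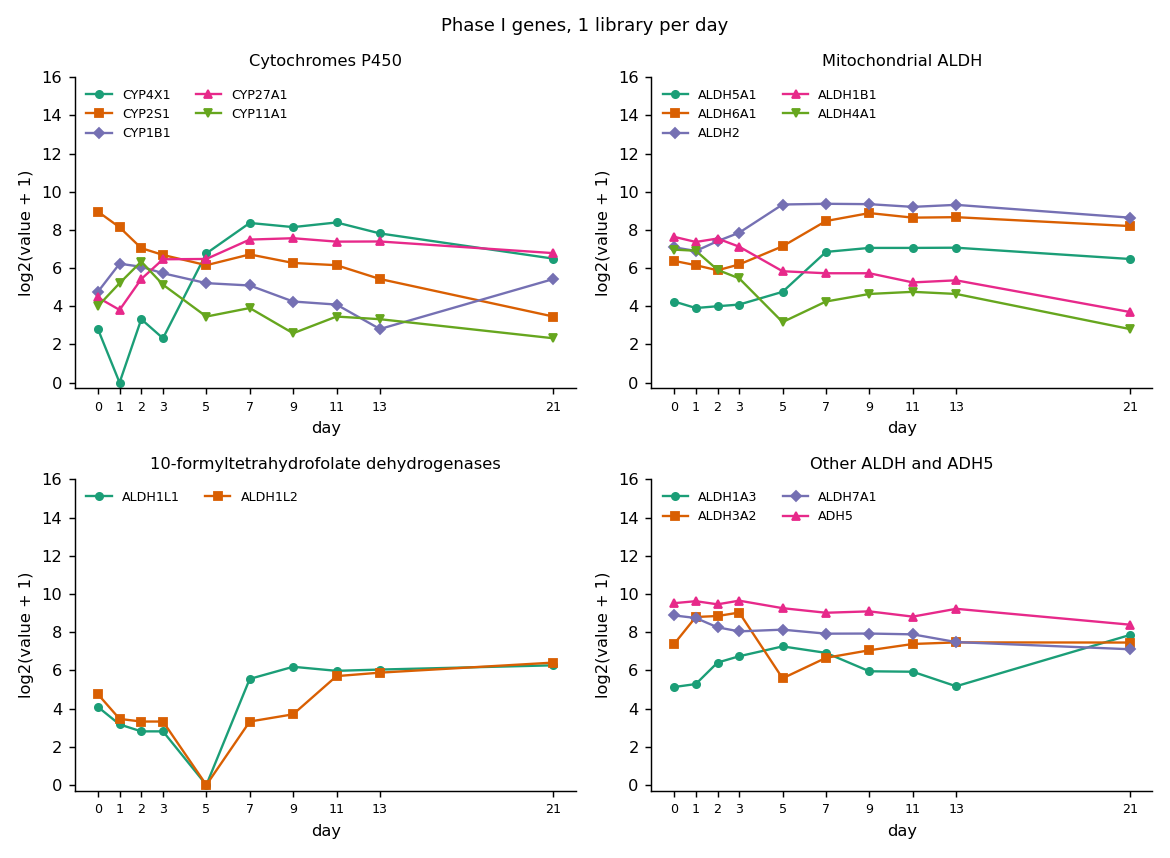
Log2(value + 1) of named phase I genes (vertical axis) against day of differentiation (horizontal axis), with 1 point per library and no error bars because each day has 1 library. CYP2S1 falls from 496 to 10 and ALDH1B1 from 198 to 12, while CYP4X1 and ALDH5A1 rise between days 3 and 7, and both 10-formyltetrahydrofolate dehydrogenases are listed at 0 at day 5.

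The single alcohol dehydrogenase, ADH5, was not called in any interval. ADH5 is the class III enzyme found in nearly all cells, which clears formaldehyde bound to glutathione. Its values were 734, 789, 704, 804, 612, 518, 545, 450, 598 and 336, a range of 1.26 on the log2 scale with the lowest value at day 21. The rule found none of the class I enzymes that oxidize ethanol in liver, which, as for the P450s, does not show that they were not expressed.

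Among the 13 aldehyde dehydrogenases, 4 of the 12 that could be called rose from day 3 to day 13 (33.3%, background 7.8%). From day 13 to day 21, 1 of 11 rose (9.09%, background 2.28%). ALDH1B1 and ALDH4A1 were lower at day 21 than at day 0, which is 2 of 13 (15.4%) and near the background of 11.5%. ALDH2, the mitochondrial enzyme that oxidizes the acetaldehyde made from ethanol, had values of 135, 118, 169, 230, 642, 659, 650, 589, 634 and 398. All values from day 5 on were above those of days 0 to 3, but no interval reached 4-fold. ALDH1B1, a second mitochondrial enzyme that can oxidize acetaldehyde, moved the other way, with values of 198, 164, 186, 138, 56, 52, 52, 37, 40 and 12 and a difference of -3.94 from day 0 to day 21.

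Mitochondrial enzymes that act on amino acids and related metabolites went both ways. ALDH5A1, the succinic semialdehyde dehydrogenase of GABA breakdown, had values of 18, 14, 15, 16, 26, 114, 132, 132, 133 and 88. ALDH6A1, which acts in valine breakdown, had values of 82, 70, 58, 72, 140, 352, 470, 398, 405 and 293. From day 3 to day 13 the former rose by 2.98 and the latter by 2.48, and both were lower at day 21 than at day 13 without reaching a call. ALDH4A1, of proline breakdown, was 124, 119, 59, 43, 8, 18, 24, 26, 24 and 6, so that it was lower by 4.16 at day 21 than at day 0. ALDH18A1, which acts in the opposite direction in proline synthesis, had values of 368, 162, 353 and 676 on days 0, 3, 13 and 21 and was not called.

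ALDH1L1 and ALDH1L2, the cytosolic and mitochondrial 10-formyltetrahydrofolate dehydrogenases of folate metabolism, rose at different days. ALDH1L1 had values of 16, 8, 6, 6, 0, 46, 72, 62, 65 and 76. ALDH1L2 had values of 26, 10, 9, 9, 0, 9, 12, 51, 58 and 84. Both were listed at 0 at day 5, the first was at 46 by day 7, and the second stayed at 12 or below on days 1 to 9, with 10, 9, 9, 0, 9 and 12. From day 3 to day 13 they rose by 3.24 and 2.56.

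ALDH1A3, which makes retinoic acid from retinal, was 34, 38, 84, 106, 152, 120, 61, 60, 35 and 230. After a first maximum at day 5 it rose by 2.68 in the interval from day 13 on, the only phase I gene called in that interval. Counted from 60 at day 11, its rise did not reach the threshold of a call. ALDH3A2, the fatty aldehyde dehydrogenase, was 166, 444, 460, 522, 47, 100, 132, 166, 176 and 175, which places a drop between days 3 and 5 inside a course whose first and last values were nearly the same. ALDH7A1 of lysine breakdown declined from 470 at day 0 to 137 at day 21 without a call. ALDH9A1 lay between 112 and 240 and had the narrowest range of the ALDH genes that were at 50 or more every day (1.09), and ALDH16A1 lay between 48 and 124.

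Among the phase II genes, the UGT family had the largest share of rises in the last interval. Over days 13 to 21, 4 of the 5 UGT genes were called higher (background 2.28%) and all 5 differences were above 0, with a median of 2.66 against -0.10 for all genes. UGT2B7, which glucuronidates morphine and steroids, had values of 1, 0, 0, 0, 1, 11, 24, 13, 29 and 124. UGT2B11, a close relative, had values of 0, 0, 0, 0, 1, 61, 72, 34, 28 and 182. Both stayed at 1 or below to day 5, had a first maximum at day 9 and were highest at day 21, where they exceeded day 13 by 2.06 and 2.66. With 5 in place of 1 added to the values, UGT2B7 was no longer called. The table places UGT2B7 at chr4:69917081-69973945 and UGT2B11 at chr4:70065669-70080449, 91.7 kb apart.

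UGT3A1, which uses UDP-N-acetylglucosamine, and UGT3A2, which uses UDP-glucose and UDP-xylose, peaked at day 7, were at 6 at day 13 and rose again. UGT3A1 was 7, 5, 8, 10, 7, 148, 130, 22, 6 and 136. UGT3A2 was 66, 37, 22, 28, 110, 202, 84, 30, 6 and 54. After day 13 they rose by 4.29 and 2.97. The size of these 2 differences depends on the value of 6 at day 13. Counted from day 11, UGT3A1 (22 to 136) still reached the threshold of a call and UGT3A2 (30 to 54) did not. UGT8, which makes galactosylceramide, lay between 50 and 149 and was not called.

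The sulfotransferases split into genes that were at or near 0 in the first 3 days and genes with low values throughout. SULT1E1, the oestrogen sulfotransferase, was listed at 0 on days 0, 1, 2, 3 and 5 and then had values of 59, 118, 186, 125 and 51. Its highest value was at day 11, and it was called higher from day 3 to day 13 and from day 0 to day 21. SULT2A1, which sulfates dehydroepiandrosterone and bile acids, was 0, 0, 0, 2, 13, 14, 22, 46, 41 and 56, and passed 50 only at day 21. SULT1C4 was 4, 10, 8, 2, 1, 3, 18, 30, 68 and 30 and rose by 4.52 from day 3 to day 13. SULT1A1, which sulfates phenols, was 15, 16, 8, 8, 13, 26, 26, 30, 52 and 48 and rose by 2.56 over the same days. SULT1B1, of thyroid hormone sulfation, lay between 9 and 47.

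The catecholamine sulfotransferases SULT1A3 and SULT1A4 could not be read as separate genes. Of 50-base windows of their transcripts, 75.5% of those of SULT1A3 also occur in SULT1A4 and 96.8% of those of SULT1A4 occur in SULT1A3. The table holds 2 rows named SULT1A3, and the row of ENSG00000213599 is a read-through gene, SLX1A-SULT1A3, in GENCODE release 29. That row was 16 at day 13 and 80 at day 21 (2.25, called higher), the other SULT1A3 row was 28 and 32, and SULT1A4 was 52 and 98.

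The alpha class glutathione S-transferases GSTA1 and GSTA2, the main detoxifying GSTs of liver, were both listed at 0 at day 0 and rose to 650 and 527 at day 21. GSTA2 had values of 0, 0, 0, 1, 36, 192, 303, 226, 322 and 527. GSTA1 had values of 0, 1, 0, 6, 6, 47, 38, 13, 24 and 650. GSTA2 thus rose mainly between days 3 and 7 and by 7.34 from day 3 to day 13, whereas GSTA1 stayed under 50 until day 13 and then rose by 4.70 by day 21. After day 13 GSTA2 differed by 0.71, which was not called. Of 50-base transcript windows, 21.7% of those of GSTA1 are shared with GSTA2 and 18.4% of those of GSTA2 with GSTA1, so reads from shared stretches may have been split between them.

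The promoters of these neighbours are shown because the pair has almost the same sequence before the start and a different course at days 5 to 13. RefSeq places the 250 bases before the start of GSTA1 at chr6:52803817-52804066 and those of GSTA2 at chr6:52763476-52763725, both on the minus strand of GRCh38.p14. The sequences read 5′ to 3′ towards the start, and capitals mark the 7 bases that differ.
GSTA1: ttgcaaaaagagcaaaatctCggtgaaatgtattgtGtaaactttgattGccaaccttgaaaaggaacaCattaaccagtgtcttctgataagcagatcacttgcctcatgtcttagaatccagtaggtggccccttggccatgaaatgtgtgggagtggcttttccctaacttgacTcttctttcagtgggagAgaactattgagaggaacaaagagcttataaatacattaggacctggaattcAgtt
GSTA2: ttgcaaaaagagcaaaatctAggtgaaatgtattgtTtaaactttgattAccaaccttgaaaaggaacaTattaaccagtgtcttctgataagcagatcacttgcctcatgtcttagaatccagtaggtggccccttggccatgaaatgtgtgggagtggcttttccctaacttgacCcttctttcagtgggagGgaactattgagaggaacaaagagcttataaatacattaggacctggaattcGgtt

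Of the 250 bases, 243 (97.2%) were identical. Both hold a TATA box (TATAAA) 30 bases before the start and a single copy of ATTAAC, which is the motif GTTAAT of the liver factor HNF1 on the other strand, 180 bases before it. This 6-letter motif occurred on either strand in 6.23% of the 35116 RefSeq promoter windows of the same length and in 6 of the 55 windows of the 43 enzyme genes that matched (10.9%), those of GSTA1, GSTA2, MGST1, SULT1E1 and UGT3A1. A match of letters is a description and does not show binding. The xenobiotic response element core GCGTG was in 15 of the 55 windows (27.3%, against 32.2% of all windows) and the antioxidant response element core TGACNNNGC in 5 (9.09%, against 10.9%). The palindrome of 2 HNF1 arms was in 0 of the enzyme windows.

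**Figure D3:**
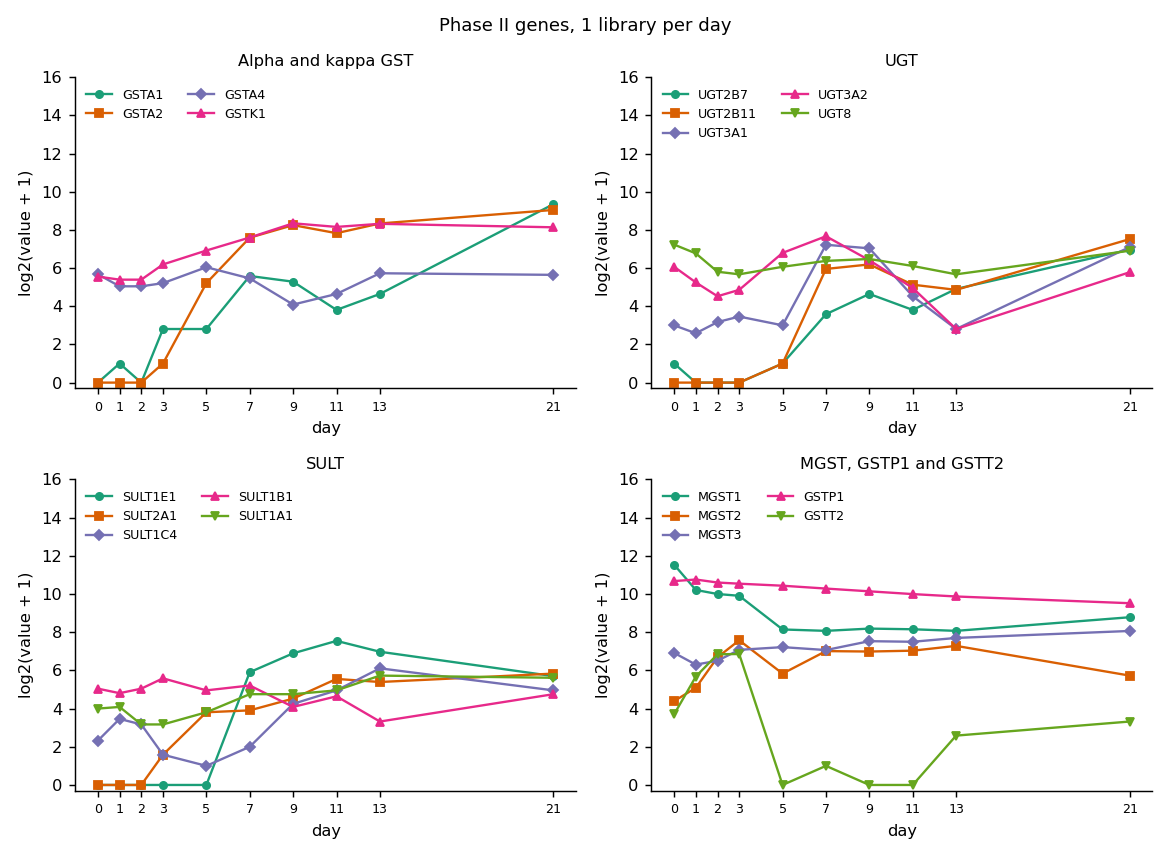
Log2(value + 1) of named phase II genes (vertical axis) against day of differentiation (horizontal axis), with 1 point per library and no error bars because each day has 1 library. GSTA2 is at 192 by day 7 while GSTA1 reaches 650 only at day 21, all 5 UGT genes are higher at day 21 than at day 13, SULT1E1 peaks at day 11, and MGST1 and GSTP1 are higher at day 0 than at day 21.

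The other GST genes varied less. GSTA4, which clears the lipid aldehyde 4-hydroxynonenal and lies 178.7 kb from GSTA1 in the table, was between 16 and 65 and was not called. GSTK1, the kappa class enzyme of mitochondria and peroxisomes, was 46, 41, 41, 72, 120, 193, 324, 284, 318 and 280 and rose by 2.13 from day 3 to day 13. GSTP1, the pi class enzyme common in tissues other than adult liver, was 1638, 1733, 1554, 1490, 1384, 1248, 1129, 1021, 936 and 733. Every value of GSTP1 after day 1 was below the one before it, but its whole range was 1.24 and it was not called.

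In the mu class, GSTM3 and GSTM2 rose and GSTM1 and GSTM4 were not called. GSTM3 was 18, 24, 16, 22, 24, 26, 60, 84, 135 and 273, a rise of 2.56 from day 3 to day 13. GSTM2 was 50, 49, 46, 48, 68, 70, 54, 76, 94 and 302, and its rise of 2.57 from day 0 to day 21 came mainly after day 13. GSTM1 was 74, 96, 90, 81, 74, 34, 37, 32, 38 and 44. Its values on days 7 to 21 were all below those on days 0 to 5. GSTM1 and GSTM2 overlap in the intervals of the table and share 37.2% of the transcript windows of GSTM1, so their values are uncertain.

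GSTO1 and GSTO2, omega class enzymes that reduce dehydroascorbate, lie 9.1 kb apart in the table and had opposite courses up to day 13. GSTO1 was 80, 142, 210, 163, 180, 282, 329, 317, 390 and 115. GSTO2 was 59, 48, 30, 24, 18, 16, 18, 16, 10 and 8, lower by 2.74 at day 21 than at day 0. They share no 50-base transcript window. GSTO1 was not called in any of the 4 intervals, and its value at day 21 lay between those of days 0 and 1.

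GSTT2, a theta class enzyme, had a short early maximum. Its values were 12, 50, 114, 115, 0, 1, 0, 0, 5 and 9. It rose by 3.16 from day 0 to day 3 and was listed at 0 on days 5, 9 and 11. GENCODE release 29 holds a copy, GSTT2B, with which GSTT2 shares 81.1% of its windows, so the gene from which the reads came is uncertain. GSTT1 lay between 39 and 78, and GSTZ1, the maleylacetoacetate isomerase of tyrosine breakdown, lay between 34 and 66 and had the narrowest range of all 52 genes (0.94).

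Of the microsomal enzymes, MGST1 was highest in undifferentiated cells. It had values of 2972, 1187, 1024, 960, 282, 268, 291, 284, 268 and 440 and was lower by 2.75 at day 21 than at day 0, where the day 0 value lay on one of the shared top levels. MGST2, which can also make leukotriene C4, was 20, 33, 102, 190, 56, 128, 126, 130, 155 and 52 and rose by 3.19 from day 0 to day 3. MGST3 lay between 78 and 267 with its highest value at day 21 and was not called.

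Phase I and phase II genes were set side by side in each interval. From day 0 to day 3 the median difference of log2(value + 1) was -0.17 over the 22 phase I genes, 0 over the 30 phase II genes and -0.04 over all genes. From day 3 to day 13 the share called higher was nearly equal, 5 of 17 in phase I (29.4%) and 6 of 20 in phase II (30%), against 7.8% of all genes. The median differences over these days were 0.04 and 0.57, against -0.08 for all genes. Genes listed at 0 enter these medians as log2(0 + 1).

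In the last interval, from day 13, the medians of the phases lay farther apart over all 52 genes (phase I minus phase II -0.97, against -0.54 from day 3 to day 13). In a narrower set of genes the order was the other way round, -0.26 against -2.06. Its phase I genes were ADH5, ALDH1A3, ALDH1B1, ALDH1L1, ALDH1L2, ALDH3A2, CYP1B1 and CYP2S1, so ALDH2 was not in it. Its phase II genes left out UGT3A1, UGT3A2 and UGT8. Over all 52 genes, 1 of 14 phase I genes was called higher (7.14%) and 6 of 24 phase II genes (25%), against 2.28% of all genes. The median differences were -0.53 and 0.44, against -0.10 for all genes. Of the 22 phase I genes, 16 had a difference below 0 and 6 above. Of the 30 phase II genes, 11 had a difference below 0 and 19 above. Without the 5 UGT genes, 2 of 19 phase II genes were called higher (10.5%) and the median was 0.21. With 1 library per day and genes that are not replicates of each other, the difference between the phases was not tested.

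Over the whole course, 5 of 17 phase I genes (29.4%) and 11 of 25 phase II genes (44%) were called higher, against 11.9% of all genes. Called lower were 3 phase I genes (17.6%) and 2 phase II genes (8%), against 11.5% of all genes. The medians were 0.09 and 1.24, against -0.12 for all genes. The highest value fell on day 13 or 21 in 5 of 22 phase I genes (22.7%) and in 14 of 30 phase II genes (46.7%), against 26.8% of all genes. It fell on days 0 to 3 in 11 phase I genes (50%) and in 10 phase II genes (33.3%), against 47.9% of all genes.

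**Figure D4:**
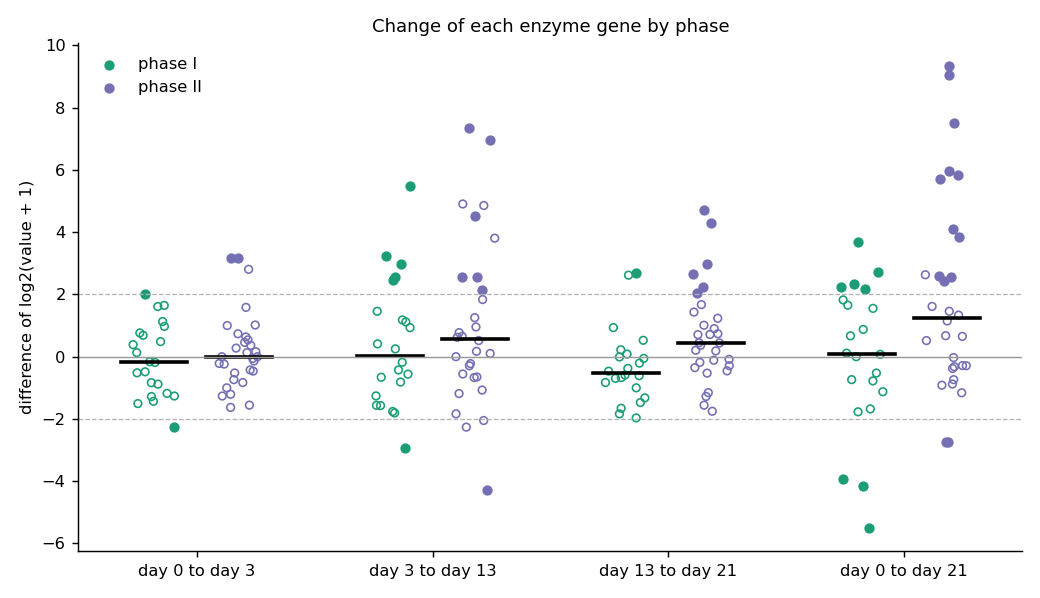
Difference of log2(value + 1) (vertical axis) of each enzyme gene over 4 intervals (horizontal axis), in green for the 22 phase I genes and in purple for the 30 phase II genes. Filled points were called, open points were not, short black bars are medians, dashed lines mark differences of 2 and -2, and the height of points with a value listed at 0 depends on the added 1. From day 13 to day 21 the median is -0.53 in phase I and 0.44 in phase II.

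Between successive libraries, calls of enzyme genes fell on few days. From day 3 to day 5 CYP4X1 was called higher (background 2.85%) and ALDH3A2 and GSTT2 were called lower (background 2.24%). From day 5 to day 7 ALDH5A1, SULT1E1, UGT2B11, UGT3A1 and GSTA2 were called higher (background 2.25%) and none lower (background 1.34%). From day 9 to day 11, 2 libraries of the same medium, UGT3A1 was called lower, with values of 130 and 22, against 0.107% of all genes lower and 0.107% higher. No enzyme gene was called in the other pairs from day 0 to day 13. Their backgrounds of higher and lower genes were 1.02% and 0.811% from day 0 to day 1, 1.12% and 0.291% from day 1 to day 2, and 0.375% and 0.0702% from day 2 to day 3. They were 0.757% and 0.245% from day 7 to day 9 and 0.224% and 0.0943% from day 11 to day 13.

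Other genes of the pathway were counted by list, and a gene not found in the table may still have been expressed. Of 8 regulators 6 were found. NR1I3, the constitutive androstane receptor that induces drug-metabolizing genes, had values of 4, 3, 56 and 31 on days 0, 3, 13 and 21. It rose by 3.83 from day 3 to day 13, the only regulator called among the 6 that could be (background 7.8%). AHR on these days was 52, 72, 98 and 118, its partner ARNT was 118, 99, 153 and 193, and RXRA, the partner of nuclear receptors, was 112, 196, 460 and 450. NFE2L2, the antioxidant response factor, was 96, 150, 200 and 137, and its inhibitor KEAP1 was 167, 94, 96 and 88. All 6 electron donor genes were found. POR, the reductase that feeds microsomal P450s, was 261, 188, 222 and 287 and was not called. CYB5A was lower at day 3 (169 to 40, background 2.16%) and higher again at day 13 (219, background 7.8%). FDXR, of the mitochondrial P450 chain, was lower at day 21 than at day 0 (106 to 20, background 11.5%).

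Among other phase I genes, 16 of 28 were found, and 12 could be called from day 3 to day 13. Of these, EPHX2, FMO1, FMO5 and PON2 rose (background 7.8%) and AKR1B1 and CBR1 fell (background 5.6%). FMO1, a flavin monooxygenase of fetal liver, was listed at 0 to day 3, and its values on days 13 and 21 were 110 and 136. After day 13 MAOA rose from 5 to 169 (background 2.28%) and the quinone reductase NQO1 fell from 78 to 16 (background 1.62%). Among other phase II genes, 4 of 9 were found. NNMT, which methylates nicotinamide, was listed at 0 at day 0 and was called higher at day 21 with a value of 82 (background 11.9%). All 8 genes of cofactor supply were found. UGP2, which makes UDP-glucose, was lower at day 3 (2429 to 576, background 2.16%), with the day 0 value on a shared top level. UGDH, which makes the UDP-glucuronic acid that UGT enzymes use, went from 282 to 598 after day 13, and PAPSS2, which makes the sulfate donor of SULT enzymes, from 76 to 293. Neither was called. Of 10 export pumps 5 were found, and all 5 could be called from day 3 to day 13. Over these days ABCC2, which exports glucuronide and glutathione conjugates into bile, rose from 5 to 106 and ABCC6 from 10 to 179 (background 7.8%). ABCC4 had values of 34, 218 and 34 on days 0, 3 and 13, called higher (background 3.94%) and then lower (background 5.6%).

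Markers of other cell types moved over the same days as the enzyme genes. The 7 stromal markers, all found and all called higher from day 3 to day 13 (background 7.8%), had sums of 756, 664, 37388 and 39613 on days 0, 3, 13 and 21. The last 2 sums are largely set by shared top levels, with COL1A2 at 18734, COL3A1 at 6502 and DCN at 2802 on both days. From day 13 to day 21 COL1A1 (3861 to 6494), PDGFRA (333 to 695) and PDGFRB (290 to 518) rose without a call and LUM fell (4866 to 3868). The 5 red blood cell markers summed to 2, 4, 5224 and 2644, and 3 of 4 endothelial markers to 572, 337, 1864 and 1190. Of 4 intestinal markers 2 were found, CDX2 and VIL1, and summed to 4, 32, 331 and 536. Of 5 macrophage markers 2 were found and summed to 39, 0, 50 and 324, with PTPRC listed at 0 on day 13 and at 65 on day 21. Their part in the rises of the enzyme genes, GSTA1, GSTM3 and the UGT genes included, was not tested.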

How the data were processed

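RNA of 10 libraries was prepared with a TruSeq RNA kit, which does not mark strand, and sequenced on a MiSeq. The authors used Bowtie2 (2.2.0) to align reads to an ENSEMBL transcriptome, RSEM (1.2.17) to estimate abundance and EDASeq to correct for GC content. The deposited values are scores, whole numbers of nearly the same distribution in every library, and not read counts, so depth and counting error are unknown and no count test was used. The methods name a mouse transcriptome (mm10) although the identifiers are human, and the build of the table's intervals is not named, so they are printed as the table gives them. No gene of the table had fewer than 2 libraries at 26 or more.

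Columns were matched to days by name. Differences of log2(value + 1) were computed with Python 3.11.15, numpy 2.4.6 and pandas 2.3.3 and plotted with matplotlib 3.10.9. The code of the call rule was run on simulated data with planted changes larger than 4-fold, which gives no error rate for these libraries. Named are all enzyme genes called in 1 of the 4 main intervals, the widest and narrowest of each family, their cluster neighbours and near-identical copies, and listed pathway genes. Others (ALDH2, ALDH3A2, ALDH7A1, ALDH16A1, ALDH18A1, CYP20A1, CYP27C1, CYP39A1 and SULT1B1) were chosen after their values were seen. Members and lists were chosen with earlier results of these data known. RefSeq promoters (GRCh38.p14) were searched on both strands, and 50-base windows were taken from GENCODE release 29 transcripts. A listed pathway gene is not reported here.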

Additional observations from a re-analysis of the deposited data

How the results depend on the processing

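With 1 library per day, no result has a replicate check, and a single library can set a call. No paired analysis was possible because each day has 1 library and no test was run. Of 125 alternative values, 103 moved by at most 1.5 times (counts) or 0.25 (median differences), among them those with a pseudocount of 0.1 or 5, with median-of-ratios scaling or without the shared top levels. Some of the 103 could hardly move. No gene name had the form of a pseudogene, antisense or read-through row, so moving such rows changed nothing. Leaving out the shared top levels removed only MGST1, and only in intervals from day 0. The 103 therefore overstate how stable the results are. Scaling by the median of ratios shifted log2 differences by 0.01 to 0.19 and called only ALDH6A1 differently (higher from day 0 to day 21).

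With a larger value of at least 200, genes called higher fell from 3, 11, 7 and 16 (days 0 to 3, 3 to 13, 13 to 21 and 0 to 21) to 0, 4, 2 and 6, and genes called lower from 2 to 0 (days 3 to 13) and from 5 to 2 (days 0 to 21). At a log2 difference of 1, higher genes were 6 from day 0 to day 3, and lower genes were 7, 8, 5 and 8 in place of 1, 2, 0 and 5. With no filter on low values, 4 genes were lower from day 3 to day 13. With the neighbouring library, 0 were lower from day 0 to day 2, 7 higher and 1 lower from day 3 to day 11, and 1 lower from day 11 to day 21. Without the UGT family, an alternative chosen after seeing the data, 3 were higher from day 13 to day 21. The phase I minus phase II median difference of -0.17 from day 0 to day 3 changed sign to 0.11 among genes with a larger value of at least 50 and to 0.06 with day 2 in place of day 3. Under that same filter it was -0.23 in place of -0.54 from day 3 to day 13 and -0.46 in place of -1.15 from day 0 to day 21. In the narrower set, which lacked ALDH2, it was -2.06 in place of -0.54 and -0.26 in place of -0.97 (days 13 to 21). That set still held enzymes of the body's own metabolites, ALDH1L1 and SULT1E1 among them. The cause of these shifts was not tested. The share of all genes called was not computed under the alternatives, so their counts have no background.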
